A study of Homo sapiens with 2 samples.

Results

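The ID genes ID1, ID2, ID3 and ID4 and the inhibitory SMAD genes SMAD6 and SMAD7 are textbook targets of bone morphogenetic proteins (BMPs) and of transforming growth factor beta (TGF-beta). These 6 genes were chosen by name, with the pattern of their values in these data already known, from 18377 genes measured. Each was represented by 1 entry of the array, called a probe here, that lists that gene alone. ID1, ID2 and ID3 were at least 2-fold lower in cells cultured with erythropoietin (EPO), the hormone that supports red cell precursors, than in cells cultured without EPO. ID4, SMAD6 and SMAD7 were within 2-fold.

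Both samples were K562 cells, a human leukaemia line driven by the BCR-ABL1 kinase and able to form erythroid cells. Both groups were treated with the BCR-ABL1 inhibitor imatinib (2 µM, 6 h), so the drug is common to both. The first group was cultured with EPO. The sample label of the second does not mention EPO, and its absence rests on the growth protocol, which describes cultures of both kinds. RNA of each culture was hybridised to 1 Affymetrix Gene 1.0 ST array. With 1 array per group no difference has a replicate check, an error or a test, and cells without imatinib were not analysed here.

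BMPs and TGF-beta bind pairs of type I and type II receptor kinases, which phosphorylate the receptor-activated SMADs. With SMAD4 these enter the nucleus and switch on target genes, among them the ID genes. ID proteins have a helix-loop-helix domain but no DNA-binding region, so they pair with E proteins and hold them away from DNA, which delays differentiation in many tissues, blood included. SMAD6 and SMAD7 are targets that act back on the pathway: they block the receptors and recruit ubiquitin ligases to them. ID genes also respond to other signals, including serum, STAT5 and immediate-early factors.

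The stretch of 150 bases before the start site is shown for the 3 genes that were lower with EPO and for SMAD6, the inhibitory SMAD whose window carries a palindromic SMAD box (RefSeq, GRCh38.p14, written 5′ to 3′ on the strand of the gene). Capitals mark the CCAAT box, the TATA box (letters TATAA), the SMAD box CAGAC and the palindromic box GTCTAGAC, each found on either strand. These lie at chr20:31605139-31605288 (plus strand) for ID1, chr2:8681906-8682055 (plus strand) for ID2, chr1:23559502-23559651 (minus strand) for ID3 and chr15:66702086-66702235 (plus strand) for SMAD6.
ID1: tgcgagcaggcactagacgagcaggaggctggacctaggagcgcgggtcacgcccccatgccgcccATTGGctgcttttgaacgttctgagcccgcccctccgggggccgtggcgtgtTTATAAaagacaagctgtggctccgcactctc
ID2: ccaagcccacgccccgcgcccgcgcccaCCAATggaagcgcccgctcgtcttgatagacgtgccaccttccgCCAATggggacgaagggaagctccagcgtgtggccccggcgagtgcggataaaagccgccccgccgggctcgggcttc
ID3: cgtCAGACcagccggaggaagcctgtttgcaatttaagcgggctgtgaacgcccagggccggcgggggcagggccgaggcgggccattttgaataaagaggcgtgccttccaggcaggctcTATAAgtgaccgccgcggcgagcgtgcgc
SMAD6: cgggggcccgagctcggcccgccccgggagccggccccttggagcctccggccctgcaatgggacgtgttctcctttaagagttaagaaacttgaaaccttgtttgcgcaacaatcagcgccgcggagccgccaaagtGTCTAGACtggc

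Motifs were searched on both strands in windows of 300 bases (250 before and 50 from the start), and SMAD7 has 3 such windows. GGCGCC, a GC-rich SMAD element, was in none of the windows of the 6 genes and in 19.2% of the 35116 windows in the table. CAGAC, the SMAD box, was in the windows of ID3 and ID4 and in 2 of the SMAD7 windows, against 45.3% of all windows. The palindromic box GTCTAGAC, 12 bases before the SMAD6 start, was in 71 windows (0.202%). TTCNNNGAA, the letters of a STAT site, was in the ID3 window, 181 bases before the start, and in 7.66% of all windows. TATAA lay 31 bases before the ID1 start, where it overlaps a match on the other strand, and 29 bases before the starts of ID3 and ID4. It was also in 1 SMAD7 window and in 20.4% of all windows. CCAAT was in the windows of ID1, ID2 (3 matches), ID4 and SMAD6, and in 34.6% of all windows. The palindromic box, TATAA and CCAAT were added after the sequences had been seen. None of the motifs searched was common to the windows of ID1, ID2 and ID3. Sites outside these windows were not searched, so absence from a window does not show that a gene lacks the element.

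The array values are logarithms, read here as log2, and each probe had been centred by the authors on a baseline of unknown make-up. A value is therefore a deviation from that baseline and not a level, so the genes cannot be ranked by abundance, and neither the K562 identity nor the presence of a transcript could be checked from levels. A difference below is the value with EPO minus the value without EPO, which cancels the baseline. In bulk RNA, fewer cells that express a gene and less RNA per cell cannot be told apart.

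ID1, the member most often used as a readout of BMP signalling, stood at -0.71 with EPO and at 2.26 without EPO. The array without EPO was thus far above the baseline and the array with EPO below it. The difference was -2.97, or 7.84-fold lower with EPO, the 6th lowest of all 18377 genes. On the array without EPO only 4 genes had higher values, since ID1 ranked 5 from the top, and on the array with EPO it ranked 20 from the bottom.

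ID3, which has the same domain plan and often shares its regulation with ID1, stood at -0.31 with EPO and 1.42 without EPO. Its difference was -1.73 (3.32-fold lower with EPO), which ranked 55 from the lowest. ID2, known for roles in lymphoid and myeloid development, stood at -0.22 with EPO and 0.95 without EPO. That is a difference of -1.18 (2.26-fold lower), at rank 130. The array without EPO gave 76.1%, 80.9% and 82.1% of the difference for ID1, ID2 and ID3, near the median of 76.3% (quartiles 59.5% and 87.0%) over the 15271 genes whose values had opposite signs on the arrays, so this share is no trait of these 3 genes.

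ID4, a family member best known from brain, stood at -0.095 with EPO and 0.23 without EPO, a difference of -0.33. SMAD6, which preferentially blocks BMP receptors, stood at -0.056 with EPO and 0.041 without EPO, a difference of -0.097. SMAD7, which blocks both TGF-beta and BMP receptors, stood at 0.0064 with EPO and -0.0058 without EPO, a difference of 0.012. The SMAD7 values lay close to the baseline on both arrays, and the SMAD6 and SMAD7 differences lay in the middle of the ranking, at 8134 and 10242 from the lowest.

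**Figure D1:**
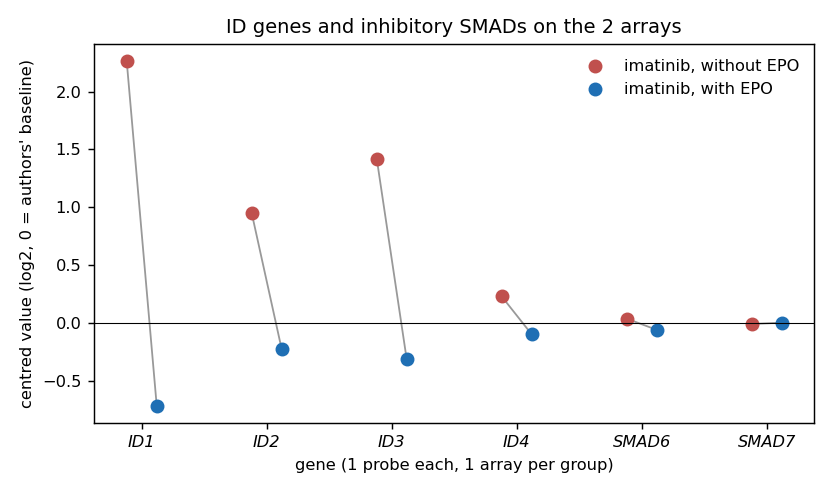
Centred log2 value (vertical axis, 0 is the authors' baseline) of each ID and inhibitory SMAD gene, with 1 point per array and a line joining the arrays. ID1, ID2 and ID3 stood at 0.95 to 2.26 without EPO and below 0 with EPO, whereas the points of SMAD6 and SMAD7 lay near 0 on both arrays.

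The set of 6 thus held 3 genes that were lower by 2-fold or more and 0 that were higher. Among all genes, 165 (0.898%) were at least 2-fold lower and 1138 (6.19%) at least 2-fold higher. The genes were chosen with these values in view, so the counts describe them and test nothing. The median of the 6 was -0.75, and that of all genes was -0.047. The split of all genes depends on how the arrays are scaled to each other. After subtraction of the median of 318 cellular machinery genes (0.50), 109 were higher and 1408 lower. With the median of 460 genes of silent families such as olfactory receptors (-0.32) subtracted, 2762 were higher and 105 lower. ID1 and ID3 stayed past 2-fold under each of these scalings, while ID2 came to -0.85 under the silent family scaling. The medians of the 2 classes lay on opposite sides of 0, so no single constant brings both to 0. Only constants were subtracted, and the unlike spread of the arrays was not adjusted.

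**Figure D2:**
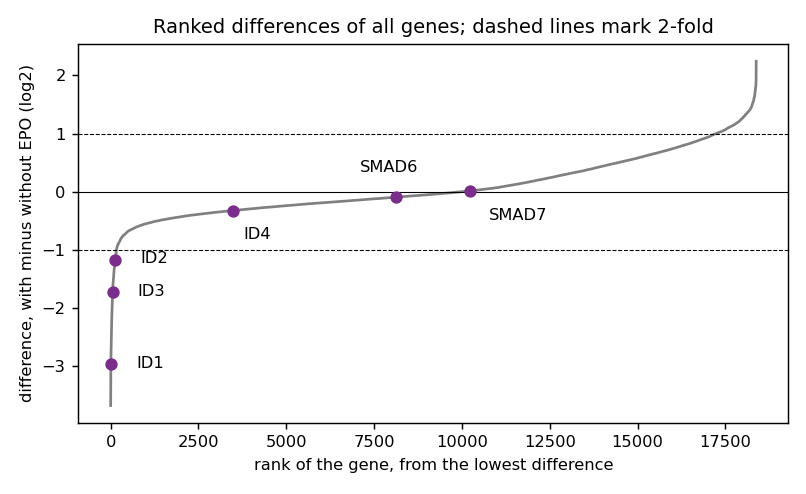
Difference (log2, with EPO minus without EPO) of all 18377 genes by rank from the lowest, with the 6 genes as points. ID1, ID3 and ID2 sit at ranks 6, 55 and 130 below the lower 2-fold line, ID4 at 3479, and SMAD6 and SMAD7 near a difference of 0.

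The 6 genes differed widely among themselves. ID1 was lower than ID3 by a further 1.24 on the log2 scale (2.36-fold) and lower than ID2 by 1.80 (3.47-fold), and ID3 and ID2 were 0.56 apart. The gap between ID2 and ID4 was 0.85, and SMAD6 and SMAD7 were 0.11 apart. None of these gaps can be set against a replicate spread. Across the 6, values ran from -0.71 to 0.0064 with EPO and from -0.0058 to 2.26 without EPO. This order of widths is also that of the whole arrays, whose standard deviations over probes were 0.134 with EPO and 0.431 without EPO. In units of those deviations ID1 lay about equally far from the baseline on both arrays, at -5.28 and 5.25, and ID3 at -2.31 and 3.30. The signs were opposite on the arrays for 6 of 6 genes and for 83.1% of all genes.

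ID1 lay below all 460 genes of the silent families and all 318 machinery genes. ID3 lay below all but 1 silent family gene and all machinery genes, and ID2 below all but 5 and 1. ID4, in contrast, lay in the middle of the silent families, of which 49.6% had a lower difference. SMAD6 and SMAD7 lay above 82.4% and 93.0% of the silent families and above 14.2% and 19.8% of the machinery genes. Whether ID4 is expressed in these cells cannot be read from centred values.

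The genes whose pair of array values was most like that of each lower member were found by Euclidean distance over the 2 arrays among protein-coding genes. For ID1 the 5 nearest were IER3, an immediate-early survival gene, at a distance of 0.23, SOCS1, an inhibitor of cytokine signalling, at 0.31, the immediate-early factor EGR1 at 0.42, and the histone H2AC4 and the G-protein regulator RGS2, both at 0.43. For ID3 they were IER2, an immediate-early gene, at 0.11, ZFP36, an mRNA decay factor, at 0.13, SNAI1, a repressor induced by TGF-beta, at 0.16, the imprinted growth gene PHLDA2 at 0.18 and the FOXO target DEPP1 at 0.19. For ID2 the nearest was HES1, a repressor of the helix-loop-helix class and target of Notch, at 0.043, with -0.25 with EPO and 0.92 without EPO. The other 4 were the olfactory receptors OR14A16 (0.050) and OR6C3 (0.063), ANKRD36B (0.061) and NUP62CL (0.061). With 2 arrays, nearness means only that both values are alike.

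**Figure D3:**
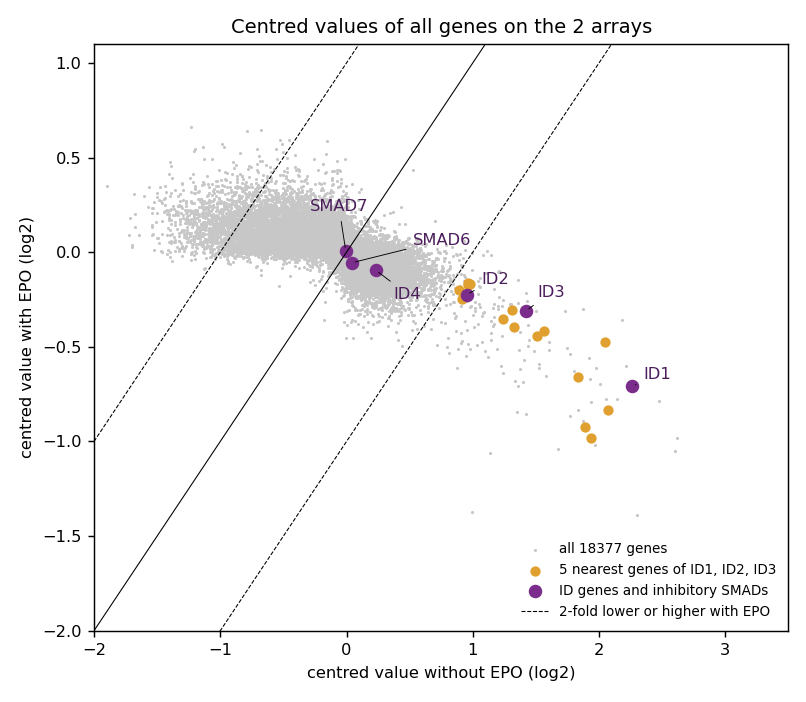
Centred log2 value with EPO (vertical) against the value without EPO (horizontal) for all 18377 genes, with the ID and inhibitory SMAD genes and the 5 nearest genes of ID1, ID2 and ID3 marked. ID1, ID2 and ID3 lie to the lower right, beyond the 2-fold line, while ID4, SMAD6 and SMAD7 lie inside the main cloud.

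The rest of the pathway was described from lists of ligands, receptors, SMADs, regulators, antagonists, targets, partners and iron genes. Of 116 measured genes in these lists, 3 were lower with EPO by 2-fold or more and 7 higher by 2-fold or more (2.59% and 6.03%, against 0.898% and 6.19% of all genes), with a median of -0.13. The 3 lower genes were all in the list of other known targets. With the machinery median subtracted 13 pathway genes were lower and 0 higher, so none of the 7 higher genes stayed past 2-fold, and the positive medians of the receptor, signalling SMAD, regulator and partner lists below turned negative. With the silent family median subtracted 3 were lower and 13 higher, and the negative medians of both ligand lists, the antagonists and the iron genes turned positive. The median of other known targets, -0.33 as deposited, came to -0.84 with the machinery median and to -0.0093, close to 0, with the silent family median subtracted.

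Ligands were within 2-fold throughout. All 16 BMP ligands lay below 0, as did 91.5% of the silent family genes and 54.6% of all genes. Their median was -0.31, close to that of the silent families. The lowest was BMP6, the ligand that signals iron stores in liver, at -0.55 (-0.13 with EPO and 0.42 without EPO), followed by GDF2 at -0.42 and BMP8B at -0.37. The list of TGF-beta, activin and other ligands had a median of -0.20 over 16 genes. Its lowest were the nodal antagonists LEFTY2 and LEFTY1 at -0.91 and -0.68, and its highest was TGFB1, the main TGF-beta of blood cells, at 0.62.

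Receptors and co-receptors had a median of 0.18 over 16 genes, with 2 higher and 0 lower, against 6.19% and 0.898% of all genes. TGFBR3, the co-receptor betaglycan, stood at 0.34 with EPO and -0.83 without EPO, a difference of 1.17 (2.25-fold higher). BMPR2, the main type II receptor for BMPs, stood at 0.080 and -1.08, a difference of 1.16 (2.23-fold higher). The type I receptor ACVR1 stood at 0.88, just under 2-fold. TGFBR3 and BMPR2 were below the baseline without EPO, where ID1, ID2 and ID3 were above it. These genes were named for differences past 2-fold in opposite directions, and 83.1% of all genes had opposite signs on the arrays. The contrast is therefore no trait of these genes. Neither receptor stayed past 2-fold with the machinery median subtracted.

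Of the 6 signalling SMADs, SMAD2, a carrier of TGF-beta signals, was at least 2-fold higher with EPO, at 0.28 against -1.05 without EPO (difference 1.33, 2.51-fold, mean of 2 probes). Among all genes 6.19% were at least 2-fold higher. The common partner SMAD4 and the TGF-beta carrier SMAD3 stood at 0.65 and 0.62. The BMP carriers SMAD1, SMAD5 and SMAD9 stood at -0.25, 0.16 and -0.098.

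Intracellular regulators had a median of 0.28 over 15 genes, with 3 higher and 0 lower, against 6.19% and 0.898% of all genes. STRAP, which helps SMAD7 block the TGF-beta receptor, stood at 1.37 (2.58-fold), the SMAD phosphatase PPM1A at 1.30 (2.46-fold) and FKBP1A, the protein that keeps type I receptors silent, at 1.13 (2.18-fold). SMURF1, the ubiquitin ligase recruited by SMAD6 and SMAD7, stood at 0.78, and SMURF2 at 0.20. Extracellular antagonists were within 2-fold, with a median of -0.16 over 13 genes; TWSG1, the antagonist twisted gastrulation, was highest at 0.94, and CER1 and GREM1 were lowest at -0.53 and -0.51.

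Other known targets had a median of -0.33 over 20 genes, with 3 lower and 0 higher. Among all genes 0.898% were lower and 6.19% higher. The list was chosen with earlier results of these data known, so its counts describe it and test nothing. SNAI1 stood at -0.44 with EPO and 1.51 without EPO, a difference of -1.95 (3.87-fold lower). JUNB, an AP-1 subunit that is a TGF-beta target and also an immediate-early gene, stood at -0.52 and 1.37, a difference of -1.88 (3.69-fold lower). The homeobox gene DLX2 stood at -0.39 and 1.16, a difference of -1.55 (2.94-fold lower). All 3 lay above the baseline without EPO and below it with EPO, as did ID1, ID2 and ID3. They were picked for being past 2-fold, and 83.1% of all genes had opposite signs on the arrays. The likeness is therefore no trait of these genes. The remaining 17 were within 2-fold, among them the cell cycle inhibitor CDKN1A at -0.68, the BMP target HEY1 at -0.66, the pseudoreceptor BAMBI at -0.21, ATOH8 at -0.13 and the SMAD corepressor SKIL, a feedback target of TGF-beta, at 0.61.

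**Figure D4:**
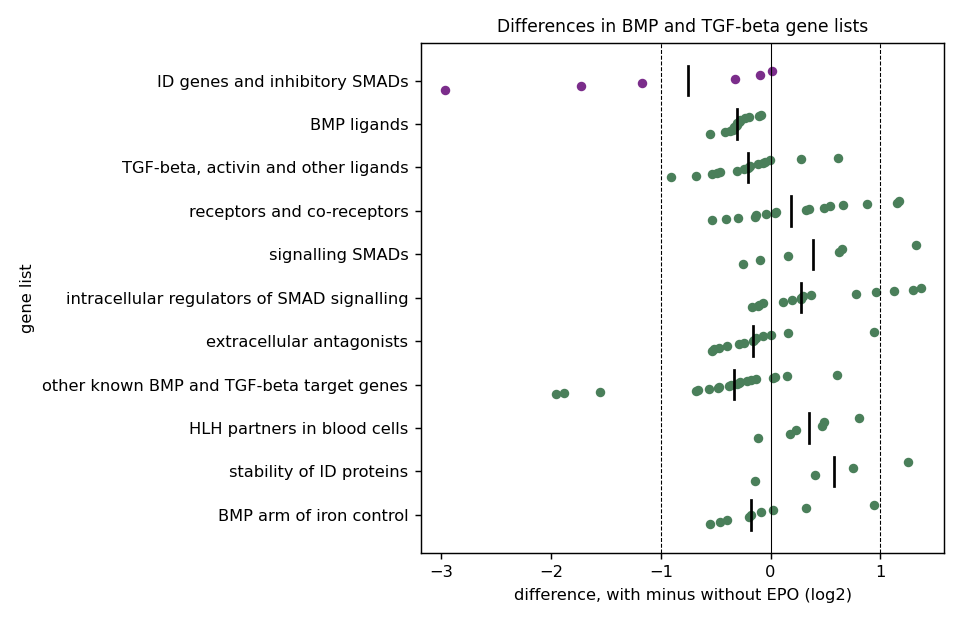
Difference (log2, with EPO minus without EPO, horizontal axis) of each measured gene in the ID and inhibitory SMAD set and in 10 pathway lists, with a bar at each median and dashed lines at 2-fold. Points past the lower line are ID1, ID3 and ID2 and, among other targets, SNAI1, JUNB and DLX2.

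ID proteins act through the factors they bind and are kept at their level by stability factors. Among E proteins and their partners in blood cells (6 genes, median 0.35, none past 2-fold), TAL1, the erythroid partner of E proteins, was highest at 0.81, followed by the E protein TCF3 at 0.48 and TAL2 at 0.47. Among 4 genes of ID protein stability, USP1, the deubiquitinase that protects ID proteins, stood at 0.16 with EPO and -1.09 without EPO, a difference of 1.25 (2.38-fold higher). Of all genes, 6.19% were at least 2-fold higher. WDR48, the partner of USP1, stood at 0.75, COPS5 at 0.40 and FZR1, the adaptor that marks ID proteins for degradation, at -0.14. The iron control genes that use the BMP pathway had a median of -0.18 over 9 genes with none past 2-fold. HAMP, the hepcidin gene and a direct BMP target in liver, stood at -0.18, TWSG1 at 0.94, BMP6 at -0.55 and GDF15, which erythroblasts secrete, at -0.46.

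Markers of erythroid cells, which K562 cells can form, and of other cell types were counted beside these results. Of 11 megakaryocyte and platelet genes and 11 lymphoid genes none was past 2-fold, with medians of -0.12 and -0.32. Of 12 granulocyte and monocyte genes CEBPA was lower at -1.07 and LYZ higher at 1.05 (median -0.25), and of 10 epithelial and stromal genes EPCAM was higher at 1.25 (median -0.010). Of 13 erythroid genes TFRC, RHAG and SLC4A1 were higher, at 1.02 to 1.19 (median 0.25). These calls stand against 0.898% lower and 6.19% higher over all genes. With the machinery median subtracted TFRC, RHAG, SLC4A1, LYZ and EPCAM came to 0.52 to 0.75, within 2-fold, and with the silent family median subtracted CEBPA came to -0.75. The part of any of these in the ID differences was not tested.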

How the data were processed

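Total RNA of 2 K562 cultures was labelled with biotin and hybridised to Affymetrix Gene 1.0 ST arrays, per the labels' protocols. The authors deposited 1 table of 28869 probes by 2 arrays, read here as log2 values; the software, its background and summary steps and the log base were not given in the sources used here. Column medians (-0.0089 with EPO, 0.052 without EPO) and the opposite signs on the arrays in 83.1% of genes show that the authors centred each probe, so filters on dim probes and levels were not possible. Precision is limited by 1 array per group.

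Probes were named by the platform annotation: 19310 list 1 gene, 1752 several and 7807 are not listed. Of the 19310, 19279 matched RefSeq genes (GRCh38.p14) by Entrez ID. Probes of a gene were averaged (18377 genes, 685 with several probes). A difference of 1 on the log2 scale (2-fold) was the rule of size. The genes named are the 6 members, the list genes past 2-fold, the largest differences of each list and the 5 nearest genes of each member past 2-fold, beside other list members chosen after their values were seen. The members and lists were chosen with earlier results of these data known. Cellular machinery genes (translation initiation, nuclear pore, proteasome, spliceosome, respiratory chain, RNA polymerase II, mitochondrial ribosome) and silent families (beta-defensins, keratin-associated proteins and taste, olfactory and vomeronasal receptors) were defined by symbol. Other thresholds, scalings, probe rules and a natural logarithm were tried. Promoter windows came from RefSeq. The averaging and calls were run on simulated data with known differences. The simulation had equal spread on both arrays, unlike the deposited arrays, so it checked the code alone. Python 3.11.15, NumPy 2.4.6 and pandas 2.3.3 were used.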

Additional observations from a re-analysis of the deposited data

How the results depend on the processing

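ID1 and ID3 stayed lower with EPO and past the threshold at 3-fold and under each scaling, all of which subtracted a constant. The other settings could not change this. Each member has 1 probe, so the probe rules returned the same values. A 1.5-fold threshold or a natural logarithm only eases the call. ID2 stayed lower throughout, but its difference of -1.18 is short of a 3-fold threshold, and with the silent family median subtracted it came to -0.85, short of 2-fold. With the silent family median subtracted, SMAD6 came to 0.23 and the medians of BMP ligands, other ligands, antagonists and iron control genes to 0.017, 0.12, 0.17 and 0.15. With the machinery median subtracted, SMAD7 came to -0.49 and the medians of receptors, signalling SMADs, intracellular regulators and partners to -0.32, -0.12, -0.22 and -0.16. Subtracting a constant is what turned these signs. Counts over all genes moved most: genes higher and lower numbered 3333 and 854 at 1.5-fold, 67 and 68 at 3-fold, 109 and 1408 with the machinery median subtracted, 2762 and 105 with the silent family median subtracted, and 2646 and 477 with values read as natural logarithms. With probes of several genes counted for each gene, 255 were lower. The other 127 alternative values kept their direction and side of 2-fold or, for counts, stayed within 1.5 times. They include the settings that could not change a member, so their number is no measure of stability. No paired analysis was possible because each group has 1 array. Signal over background is not known for centred values, so genes near the detection limit could not be set aside.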
